A study of Schizocardium californicum with 12 samples.

Results

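Genes of the extracellular matrix and of its turnover were examined in the acorn worm Schizocardium californicum: collagens, laminins, nidogens, perlecans, SPARC, agrins, fibrillins, fibulins, hemicentins, matrix metalloproteinases (MMPs) and tissue inhibitors of metalloproteinases (TIMPs). They were chosen by the name each gene carries in the deposited tables, and a gene was kept when at least 60 reads fell on it over all 12 libraries. Of 27463 genes, 118 had a matching name and 91 were kept. The families were unequal in size, with 39 hemicentins, 12 MMPs, 10 laminins, 9 nidogens, 5 agrins, 5 collagens, 3 perlecans, 3 fibulins, 2 fibrillins, 2 TIMPs and 1 SPARC gene. The 27 matches left out held at most 55 reads (Hmcn1-36), whereas the lowest gene kept, Hmcn1-10, held 79.

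The study asked which transcripts mark the irradiation-sensitive, dividing cells of larvae and juveniles. The groups were juveniles given 200 Gy of X-rays, control juveniles (0 Gy), larvae given 120 Gy and control larvae (0 Gy), with 3 libraries each. RNA was taken 3 days after treatment from pools of 5 whole animals. Because the dose was fixed by stage, effects of dose and stage cannot be told apart, and in whole animals fewer cells of a type and less RNA per cell cannot be told apart either. The sources give no strain, sex or exact age.

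The basement membrane is the sheet of matrix beneath epithelia and around muscle. Its networks of type IV collagen and laminin are bridged by nidogen and by perlecan, a heparan sulfate proteoglycan, and SPARC binds its collagen. Fibrillar collagens form the bulk of connective matrix and, in acorn worms, of the gill skeleton, while MMPs are zinc proteases that cleave matrix proteins and are held in check by TIMPs. S. californicum is remodelled at metamorphosis from a swimming larva with a large blastocoel into a burrowing worm. The gene names rest on similarity to genes of other animals, and a number after the hyphen marks a copy, so that a name such as hemicentin or agrin on a short gene model does not show that the gene is its ortholog.

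The libraries held between 7675726 and 26974509 reads on genes, with a median of 12189893. The matrix genes took 0.805% to 0.919% of these reads in irradiated juveniles, 0.823% to 0.940% in control juveniles, 1.06% to 1.33% in irradiated larvae and 1.32% to 1.60% in control larvae. For comparison, the summed level of 30 genes for dividing cells (22 of 30 listed names were found, among them Pcna, Mcm2 and Cdk1) was 3470 to 3687 normalized counts in irradiated juveniles against 4820 to 6519 in control juveniles, and 4586 to 4985 in irradiated larvae against 8120 to 9027 in control larvae. A normalized count is a read count divided by the effective library size and scaled to a common size. The list for dividing cells also holds Nusap, Aspm and Ince, which the study reported as lower after irradiation in these same libraries. Its fall was therefore partly fixed in advance and is no independent measure of lost dividing cells. A list of 20 muscle genes (5 of 31 names found, mostly titin and troponin C) summed to 24909 to 27477 in irradiated juveniles, 20829 to 23078 in control juveniles, 6025 to 9689 in irradiated larvae and 9699 to 11666 in control larvae, and 33 genes of motile cilia (15 of 26 names found, 3 genes without reads) to 86172 to 104516, 62484 to 65587, 58513 to 73051 and 65258 to 69400 in the same 4 groups. The muscle sum does not give the direction of most genes on its list. In irradiated juveniles 5 of 17 tested muscle genes were called lower (29.4%, beside 11.1% of all genes) and 0 higher. Of these 17, 13 had a negative log2 fold change, beside 10948 of all 20780 genes, and the median was -0.135. The part of the differences in these 3 lists in the results on matrix genes was not tested.

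Single libraries stood apart from their group for some of these genes. Control juvenile replicate 2 was at least 2 times above both other control juveniles for 6 of 69 matrix genes with a mean of at least 20 normalized counts, namely Mmp14, Mmp19-3, Mmp28-1, Mmp28-2, Mmp28-3 and Timp1-1. Over all 17214 genes with that mean it was 2 times above or below both others for 3.85%, against 1.16% and 1.02% in control juvenile replicates 1 and 3. Irradiated larvae replicate 2 was likewise apart for 3.68% of 15952 genes, with Mmp3-2 high and Hmcn1-29 and Hmcn1-34 low. Several values below are therefore given with and without them.

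Levels of different genes were compared by RPKM, that is, reads divided by the exon length and by the mapped reads of the library. The most abundant matrix transcript was Sprc, with a mean of 797.2 ± 152.7 RPKM in irradiated juveniles, 632.4 ± 54.6 in control juveniles, 727.2 ± 81.5 in irradiated larvae and 777.0 ± 118.8 in control larvae (SD, n = 3 each). Sprc was not called in any of the 5 comparisons, although its control groups did not overlap (577.1 to 686.3 RPKM in juveniles and 702.5 to 914.0 in larvae). Next over all libraries came the fibrillar collagen Co2a1-1 (mean 227.5 RPKM), the protease gene Mmp19-3 (211.4), Timp1-1 (131.5) and the type IV collagen Co4a5 (122.3). At the low end, most hemicentins were scarce: the median of their means was 0.339 RPKM, and the highest was 101.7 for Hmcn1-5.

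Each comparison was tested in 86 of the 91 genes. The other 5 (Hmcn1-7, Hmcn1-20, Hmcn1-45, Hmcn2-7 and Nid1-10) were left out by the filter on low counts, and a gene that is present in 1 stage only passes that filter through that stage, so that the counts below describe the genes tested. The threshold for a call was an adjusted p of 0.05. In juveniles, irradiation was followed by 18 lower and 4 higher matrix genes, which is 20.9% and 4.65% of those tested, beside 11.1% lower and 10.8% higher over all 20780 genes tested. The median log2 fold change was -0.27 for the matrix genes and -0.04 for all genes. The 3 irradiated libraries lay entirely below the 3 controls for 25 matrix genes and entirely above them for 10, beside 21.1% and 19.5% of all genes. The count of falls was 10, 16 and 9 without control juvenile replicate 1, 2 or 3 and 9, 9 and 8 without irradiated juvenile replicate 1, 2 or 3, and the count of rises was 7 without control larvae replicate 3. Shares of all genes in those refits are not given here. These counts therefore cannot show whether the excess of falls over all genes held in them. In larvae 3 were lower and 1 was higher (3.49% and 1.16%), beside 2.05% and 1.87% of all genes.

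Laminins are heterotrimers of alpha, beta and gamma chains that line the basement membrane. In irradiated juveniles 6 of 10 laminin genes were lower (60%, beside 11.1% of all genes), and none was higher. All 4 genes for beta chains were among them. Lamb2 had 2468, 2449 and 2204 normalized counts in irradiated juveniles, against 3371, 3013 and 3761 in control juveniles. The groups did not overlap, and Lamb2 fell by 0.51 ± 0.14 on the log2 scale (SE, adjusted p = 0.0234). Lamb1-1 had 318.5, 296.5 and 372.7 normalized counts in irradiated juveniles, against 702.5, 485.3 and 663.0 in control juveniles. This was the largest laminin change, with a log2 fold change of -0.90 ± 0.23 (adjusted p = 0.015).

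The other called laminins changed less. Lamb1-2 had a log2 fold change of -0.62, Lamc1-2 (a gamma chain) of -0.52, Lama3 (an alpha chain) of -0.51 and Lamb1-3 of -0.45, with adjusted p between 0.0175 and 0.0478. Lama3 had 886.8, 844.7 and 855.1 normalized counts in irradiated juveniles, against 1328, 1012 and 1334 in control juveniles, again without overlap. The gamma chain Lamc1-1 was not among them. By mean RPKM it was second (25.8) to Lamb2 (27.2). It had 4436, 3512 and 3953 normalized counts in irradiated juveniles and 3861, 3187 and 3901 in control juveniles, and its log2 fold change was 0.12 with a 95% interval that spanned 0 (adjusted p = 0.555). Lama2-2, Lama2-1 and Lamc1-3 were also not called, at 0.09, -0.40 and -0.46. Of the laminin genes, 5 (Lamb1-2, Lamb1-3, Lamc1-1, Lamc1-2 and Lamc1-3) lie on the same chromosome sequence, chr17A_Sc2, and the files give no start or end.

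These 6 calls rested on all juvenile libraries. The count of laminins called was 5 without control juvenile replicate 2, 1 without irradiated juvenile replicate 1 or replicate 3, and 0 without control juvenile replicate 1, control juvenile replicate 3 or irradiated juvenile replicate 2. All 6 genes kept a negative log2 fold change in each of these fits, where the highest adjusted p was 0.158, for Lamb1-3.

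The type IV collagens and the main nidogen had log2 fold changes of the opposite sign to the called laminins. Co4a2, a type IV collagen, had 7926, 7445 and 6940 normalized counts in irradiated juveniles, against 5179, 5074 and 5511 in control juveniles. It rose by a log2 fold change of 0.50 ± 0.11 (adjusted p = 0.00605), without overlap. Co4a5, the other type IV collagen and a gene on the same chromosome sequence (chr20A_Sc2), had 14139, 13518 and 10212 normalized counts in irradiated juveniles and 9236, 8725 and 9475 in control juveniles. Its groups did not overlap either, but at a log2 fold change of 0.47 ± 0.16 it was just outside the threshold (adjusted p = 0.0566), and DESeq2 called it (adjusted p = 0.0472). Without irradiated juvenile replicate 3, the lowest of the 3, its value was 0.60 (adjusted p = 0.0233).

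Nid1-3, by far the most abundant nidogen, had 2722, 2338 and 2045 normalized counts in irradiated juveniles, against 1364, 1082 and 1536 in control juveniles. The log2 fold change was 0.83 ± 0.25 (adjusted p = 0.0313), and the call was lost without any 1 of control juvenile replicates 1 and 2 and irradiated juvenile replicates 1 and 2 (adjusted p of 0.0764, 0.101, 0.109 and 0.0685). The other 7 nidogens tested were not called and ranged from -0.58 (Nid2-2) to 0.68 (Nid2-3). Almost all reads of Nid2-3 were shared with other places in the genome (0.396% unique), so that its counts are uncertain. Sprc had 14975, 11797 and 9921 normalized counts in irradiated juveniles and 9322, 8937 and 10318 in control juveniles, an overlap, with a log2 fold change of 0.36 (adjusted p = 0.105). Without irradiated juvenile replicate 3 it was 0.50 (adjusted p = 0.0354).

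The 3 perlecan genes went different ways. Pgbm-1, the longest model with 85 exons, had 1925, 1725 and 1590 normalized counts in irradiated juveniles, against 2271, 2425 and 2422 in control juveniles. It fell by 0.44 ± 0.12 on the log2 scale (adjusted p = 0.0173), and this call was lost without control juvenile replicate 3, irradiated juvenile replicate 2 or irradiated juvenile replicate 3 (adjusted p of 0.0557, 0.0581 and 0.0662). Pgbm-2, a model of 16 exons on the same chromosome sequence (chr22A_Sc2), had 5650, 5364 and 4351 normalized counts in irradiated juveniles and 3338, 2549 and 2984 in control juveniles. Here the log2 fold change was 0.79 ± 0.28 (adjusted p = 0.0608, and 0.0355 by DESeq2), so that the groups did not overlap but the threshold was missed. Pgbm-3 had 246.7, 167.4 and 179.6 normalized counts in irradiated juveniles and 98.6, 135.9 and 145.8 in control juveniles, at 0.63 (adjusted p = 0.0655). None of the 5 agrins, which are heparan sulfate proteoglycans of basement membranes, was called by edgeR or DESeq2 in juveniles, and none had an unadjusted p under 0.05.

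**Figure D1:**
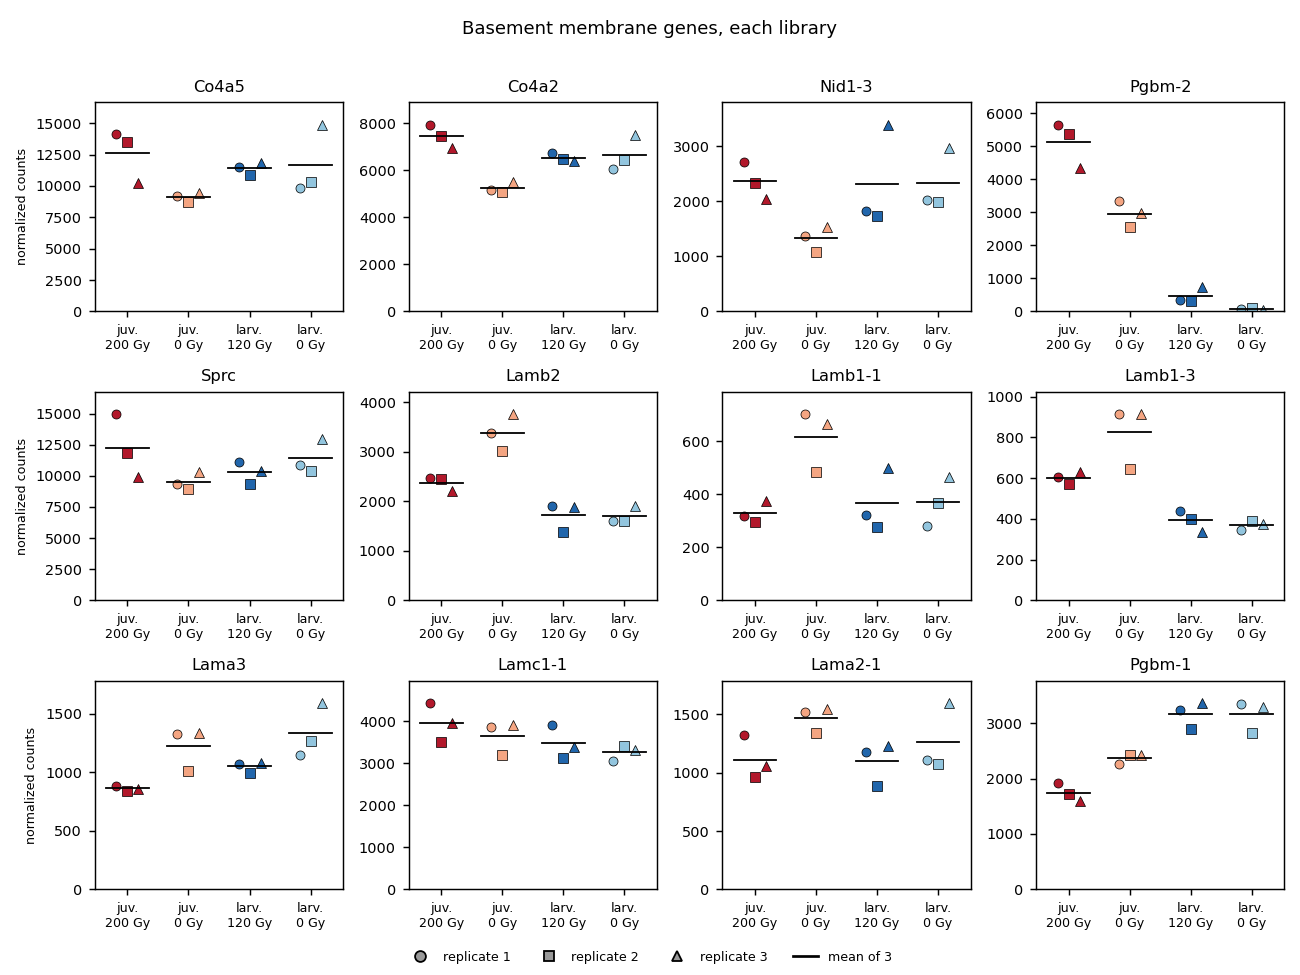
Normalized counts (y axis, from 0) of 12 basement membrane genes in every library. Groups run from irradiated juveniles to control larvae, each symbol is a library of 5 animals and the line is the mean of 3. The beta laminins Lamb2 and Lamb1-1 lie lower in irradiated juveniles than in control juveniles, Co4a2 and Nid1-3 lie higher, and Lamc1-1 overlaps.

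Irradiated larvae showed little of this, and fewer genes of any kind were called in them (3.92% of all genes, against 21.9% in juveniles). None of the 10 laminins was called by edgeR, which is near that share of all genes. An unadjusted p under 0.05 was found for 2, both lower, beside 1969 lower and 2167 higher of all 20780 genes. DESeq2 called 1, Lamc1-3 (log2 fold change -0.77, adjusted p = 0.0358). Lamb2 had 1901, 1374 and 1879 normalized counts in irradiated larvae and 1609, 1594 and 1898 in control larvae, with a log2 fold change of 0.01. Co4a2 stood at -0.03 and Nid1-3 at -0.01. The difference between the stages' effects was tested as well. It was called for 2 matrix genes as lower and 2 as higher in juveniles (2.33% each), near the 1.60% and 1.87% of all genes. It was not called for any laminin, nidogen or type IV collagen, with adjusted p = 0.174 for Lamb2, 0.16 for Lamb1-1 and 0.0795 for Co4a2. DESeq2 called that difference for Co4a2 (adjusted p = 0.012).

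The gene that rose in larvae was the perlecan Pgbm-2. It had 351.5, 324.3 and 729.0 normalized counts in irradiated larvae, against 76.2, 89.7 and 44.8 in control larvae. Every irradiated library was above every control, and the log2 fold change of 2.74 ± 0.32 (adjusted p = 0.000764), or 6.70-fold, kept its call in all 20 refits under other settings. Even so, irradiated larvae stayed below the 2549 to 3338 normalized counts of control juveniles. The larval change exceeded the juvenile one, with a difference of -1.95 ± 0.42 for juveniles minus larvae (adjusted p = 0.0278). That call on the difference was lost when any 1 of 6 libraries was left out (adjusted p up to 0.069).

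In larvae 3 genes fell. Nid2-2, a nidogen, had 96.2, 65.5 and 86.5 normalized counts in irradiated larvae, against 239.0, 110.3 and 221.8 in control larvae, which corresponds to a change of -1.18 ± 0.29 (adjusted p = 0.0391). Timp2 had 568.5, 358.2 and 471.6 normalized counts in irradiated larvae, against 864.2, 738.2 and 669.4 in control larvae, with a change of -0.70 ± 0.18 (adjusted p = 0.0484). Hmcn1-24 had 1757, 1616 and 1831 normalized counts in irradiated larvae, against 2901, 2268 and 3112 in control larvae, with a log2 fold change of -0.67 ± 0.14 (adjusted p = 0.0186). In each the groups did not overlap, but all 3 calls were close to the threshold. With irradiated larvae replicate 2 left out, the adjusted p was 0.112 for Nid2-2, 0.134 for Timp2 and 0.0641 for Hmcn1-24. Without control larvae replicate 1 it was 0.131, 0.162 and 0.062. The count of falls was 0 without irradiated larvae replicate 2 or 3 or control larvae replicate 1 or 3, 1 without irradiated larvae replicate 1 or any 1 of control juvenile replicates 1 and 3 and irradiated juvenile replicate 1, and 2 or 3 without any other library.

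Among MMPs, none of 12 was called by edgeR after irradiation in either stage, beside 21.9% of all genes in juveniles and 3.92% in larvae. In juveniles 11 of 12 had a negative log2 fold change, beside 10948 of all 20780 genes, but only 6 of 12 did without control juvenile replicate 2. With all libraries 2 had an unadjusted p under 0.05, both lower, beside 3734 lower and 3513 higher of all 20780 genes. DESeq2 called 1, Mmp19-2. That gene had 88.0, 52.7 and 121.8 normalized counts in irradiated juveniles, against 159.5, 124.3 and 216.7 in control juveniles, without overlap (log2 fold change -0.91, adjusted p = 0.0593, and 0.0418 by DESeq2). In larvae 1 had an unadjusted p under 0.05 (beside 1969 lower and 2167 higher of all genes), and DESeq2 called 1, both Mmp3-2. Several of these values were set by control juvenile replicate 2. Mmp14, named for a membrane-bound MMP, had 948.5, 1202 and 2060 normalized counts in irradiated juveniles, against 646.5, 3676 and 570.8 in control juveniles. The second control lay above all irradiated libraries and the other controls below them. With it the log2 fold change was -0.21 (adjusted p = 0.841), and without it the value was 1.21 (adjusted p = 0.0394).

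Mmp28-3 had 3597, 2837 and 4194 normalized counts in irradiated juveniles and 2015, 9996 and 1762 in control juveniles. Its log2 fold change was -0.37 with that library and 0.91 without it, and neither was called. Mmp28-1 stood at -1.92 with it and 1.22 without it, and Mmp19-3 at -0.27 and 0.28, again uncalled. Mmp28-2 had 819.1, 709.0 and 990.5 normalized counts in irradiated juveniles and 952.1, 6467 and 859.1 in control juveniles, for a log2 fold change of -1.71 with the library and -0.10 without it. The same library decided Timp1-1. This inhibitor had 3037, 2841 and 3957 normalized counts in irradiated juveniles, against 1933, 4609 and 1745 in control juveniles. The log2 fold change was 0.25 (adjusted p = 0.594) over all libraries and 0.84 (adjusted p = 0.00783) without control juvenile replicate 2.

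In larvae, Mmp3-2 had 486.6, 4568 and 758.1 normalized counts in irradiated animals, against 384.5, 270.1 and 465.1 in control larvae. Every irradiated library was above the controls, but replicate 2 was many times above the others. The log2 fold change was 2.37 ± 0.64 (adjusted p = 0.0571) with that library and 0.74 (adjusted p = 0.215) without it. It was called by DESeq2 (adjusted p = 0.0233), by library totals alone and without the filter on low counts. Timp1-1 had 6379, 5442 and 6092 normalized counts in irradiated larvae and 11158, 9254 and 7903 in control larvae, with a log2 fold change of -0.66 (adjusted p = 0.237, and 0.0369 without control juvenile replicate 2).

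**Figure D2:**
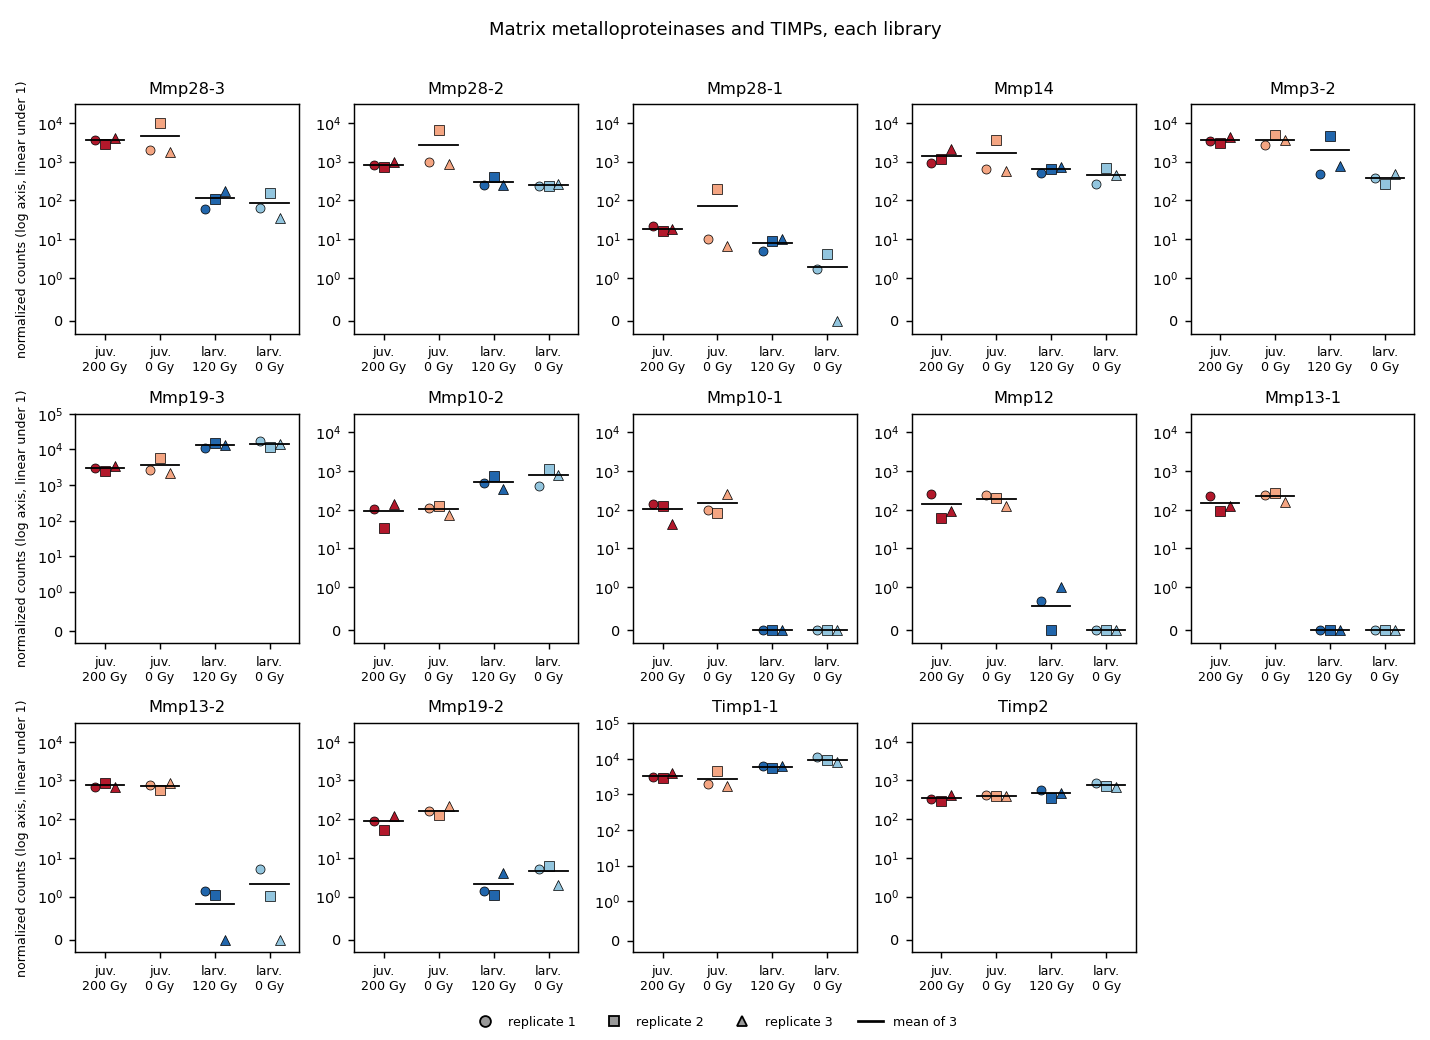
Normalized counts of the 12 matrix metalloproteinase and 2 TIMP genes in every library (y axis, logarithmic and linear under 1). Control juvenile replicate 2 (square) lies at 9996 for Mmp28-3 and 3676 for Mmp14, far above replicates 1 and 3, and 4 genes of the middle and lower rows (Mmp10-1, Mmp12, Mmp13-1 and Mmp13-2) lie between 0 and 5.2 in every larval library.

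Hemicentins are named for very long matrix proteins built of immunoglobulin domains, which in Caenorhabditis elegans anchor tissues to each other across basement membranes. They contributed 10 of the 18 genes that fell in irradiated juveniles, out of 35 hemicentins tested, and 1 that rose. That is 28.6% and 2.86% of those tested, beside 11.1% and 10.8% of all genes. Those on chr14A_Sc2, where 12 of the 39 hemicentins lie, included 6 of the falls among 11 tested (54.5%). The share of falls among the other genes of chr14A_Sc2 was not counted. Hmcn1-39 had 90, 154.2 and 146.1 normalized counts in irradiated juveniles, against 413.9, 445.8 and 339.3 in control juveniles. That is a log2 fold change of -1.61 ± 0.21 (adjusted p = 0.000332), with no overlap. Hmcn1-33 had 110.2, 148.9 and 133.0 normalized counts in irradiated juveniles, against 320.2, 283.6 and 327.0 in control juveniles, a log2 fold change of -1.25 ± 0.20 (adjusted p = 0.000921).

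Hmcn1-2 had 191.1, 116.0 and 136.4 normalized counts in irradiated juveniles, against 667.2, 445.8 and 379.2 in control juveniles (log2 fold change -1.75 ± 0.27, adjusted p = 0.000804). Only 42.5% of its reads were uniquely placed, so that other copies may share in its counts. Hmcn1-9 had 74.8, 76.4 and 85.9 normalized counts in irradiated juveniles, against 172.9, 156.4 and 172.2 in control juveniles (log2 fold change -1.08 ± 0.20, adjusted p = 0.0023). Hmcn1-35 stood at -1.32 (adjusted p = 0.00262), and Hmcn1-2, Hmcn1-9, Hmcn1-33, Hmcn1-35 and Hmcn1-39 kept their calls in all 20 refits. The other 5 falls were Hmcn2-6 (-2.18), Hmcn1-40 (-1.32), Hmcn2-3 (-1.23), Hmcn1-30 (-1.15) and Hmcn1-34 (-0.97), with adjusted p between 0.0123 and 0.0423, and each lost its call when some single library was left out. Few of the reads of Hmcn2-3 fell on exons, 14 of 102 in irradiated juveniles and 33 of 177 in control juveniles, and with exon reads alone the adjusted p was 0.097 for Hmcn2-3 and 0.0585 for Hmcn1-30. Of the hemicentins with the highest mean RPKM, Hmcn1-5 was not called and stood at -0.52 with control juvenile replicate 2 and 0.04 without it, Hmcn1-25 was not called at -0.53, and next came Hmcn1-39 and Hmcn1-24, which were called.

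Hmcn1-24 was the 1 hemicentin that rose in irradiated juveniles, and its reads were of a different kind there. It had 76.8, 61.9 and 62.1 normalized counts in irradiated juveniles, against 40.2, 45.3 and 38.0 in control juveniles (log2 fold change 0.71 ± 0.17, adjusted p = 0.00996). Only 4 of 251 reads in irradiated juveniles and 4 of 123 in control juveniles fell on its exons, whereas 5779 of 5826 in irradiated larvae and 7035 of 7073 in control larvae did. With exon reads alone the log2 fold change in juveniles was -0.27 (adjusted p = 0.86). The call on total reads was also lost without control juvenile replicate 3 (adjusted p = 0.0502).

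Fibrillins form the microfibrils of elastic matrix, and the 2 genes of that name changed in opposite directions in irradiated juveniles. Fbn3-1 (64 exons) had 3143, 3606 and 3015 normalized counts in irradiated juveniles, against 2209, 2156 and 1939 in control juveniles. It rose by a log2 fold change of 0.63 ± 0.11 (adjusted p = 0.0018), a call that held in all 20 refits. Fbn3-2 (5 exons) had 22.2, 96.2 and 42.7 normalized counts in irradiated juveniles, against 165.6, 163.7 and 176.1 in control juveniles. The log2 fold change was -1.69 ± 0.46 (adjusted p = 0.0206), lost without any 1 of control juvenile replicates 1 and 3 and irradiated juvenile replicates 1 and 3 (adjusted p of 0.0538, 0.0599, 0.0725 and 0.0769). Many reads on this short model of 519 bases fell on introns. Exon reads were 109 of 183 in irradiated juveniles and 307 of 521 in control juveniles. In larvae Fbn3-1 stood at -0.04, and the difference between the stages' effects was 0.67 ± 0.16 (adjusted p = 0.0382). That call was lost with library totals only (adjusted p = 0.0578) and without any 1 of 10 libraries (adjusted p up to 0.0924), and it held without control larvae replicate 2 (0.0492) or irradiated juvenile replicate 3 (0.0404).

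The fibrillar collagens, in contrast, were not called after irradiation. Co2a1-1 had 29212, 30039 and 20125 normalized counts in irradiated juveniles and 27504, 27398 and 30314 in control juveniles, a log2 fold change of -0.10. In larvae it had 46077, 25994 and 44602 normalized counts in irradiated animals and 49504, 54157 and 76764 in control larvae, with no overlap and a log2 fold change of -0.63 ± 0.22 (adjusted p = 0.138). Without irradiated larvae replicate 2, the lowest of them, this value was -0.41. Co5a1-1, a further fibrillar collagen, stood at -0.02 in juveniles and -0.46 in larvae. The 3 fibulins were not called by edgeR or DESeq2 in either stage, and no fibulin had an unadjusted p under 0.05.

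**Figure D3:**
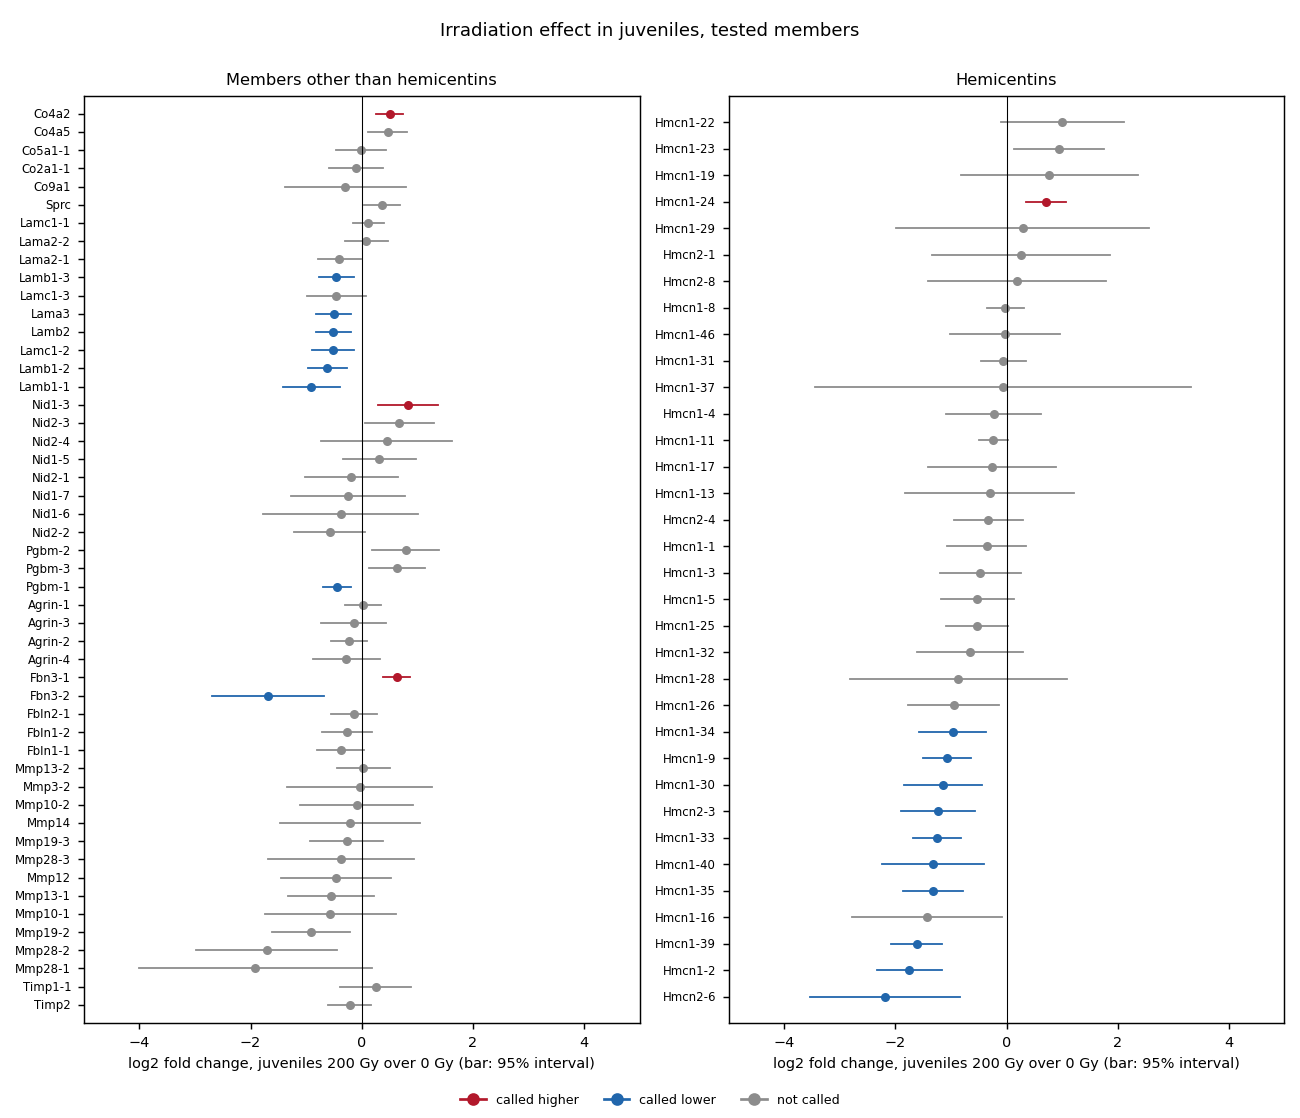
Log2 fold change of irradiated over control juveniles (x axis) with its 95% interval for each tested gene, hemicentins on the right. Called genes are coloured, and Agrin-5 and Hmcn1-10 are left out because both groups held at most 2 reads. The 6 laminin falls lie between -0.90 and -0.45, all 12 MMPs are uncalled, and the largest hemicentin falls reach -2.18.

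Genes that serve the matrix were counted from lists of names. Of 11 tested receptor genes (integrins, a discoidin domain receptor and dystroglycan), 0 fell and 1 rose (9.09%) in irradiated juveniles, beside 11.1% and 10.8% of all genes. In larvae 0 of these receptors were called by edgeR, near the 3.92% of all genes. There 1 had an unadjusted p under 0.05, beside 1969 lower and 2167 higher of all 20780 genes. Of 39 tested genes for collagen processing (hydroxylases, a lysyl oxidase and, for most of them, tolloid-like and related procollagen proteinases), 5 fell (12.8%) and 3 rose (7.69%) in irradiated juveniles, near the 11.1% and 10.8% of all genes, and 0 fell and 3 rose (7.69%) in irradiated larvae, beside 2.05% and 1.87% of all genes.

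The stages differed far more than the treatments. Between control juveniles and control larvae, 45 of the 86 matrix genes were higher and 24 lower in juveniles (52.3% and 27.9%), beside 32.8% and 29.8% of all genes, and the median log2 fold change was 0.58 against 0.03. The comparison was repeated between irradiated juveniles and irradiated larvae, which are 6 other libraries. There 36 were higher and 21 lower, beside 31.4% and 28.6%. In both comparisons 35 matrix genes were called higher and 20 lower, and 0 were called in opposite directions. Over all genes, 48.7% were called in the same direction in both.

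All 12 MMPs were called between the stages, 10 of them higher in control juveniles and 2 lower (83.3% and 16.7%, beside 32.8% and 29.8% of all genes). Mmp13-1, named for a collagenase, had 243.5, 270.4 and 154.1 normalized counts in control juveniles and no read in control larvae, which makes it at least 175-fold higher when 3 counts over the larval group are taken as the limit. Mmp10-1 and Mmp12, named for a stromelysin and for the macrophage elastase, likewise had no read in control larvae and were at least 150-fold and 149-fold higher in control juveniles. Mmp13-2 had 769.4, 565.7 and 838.5 normalized counts in control juveniles, against 5.2, 1.03 and 0 in control larvae, with a log2 fold change of 8.75 ± 0.42 (adjusted p = 2.08e-09). These limits cover counting error only. The 4 genes lie together with Mmp19-2 and Mmp10-2 on chr10A_Sc2, and 5 of these 6 were higher in juveniles. Intron reads made up 53.7% of those on Mmp12 and 45.6% of those on Mmp13-1.

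The 2 MMPs that were lower in juveniles included the most abundant of the family. Mmp19-3 had 2721, 5885 and 2220 normalized counts in control juveniles, against 17758, 11357 and 13874 in control larvae. The change was -1.99 ± 0.31 on the log2 scale (adjusted p = 0.000105), and -2.54 without control juvenile replicate 2. Mmp10-2 had 109.6, 128.6 and 74.2 normalized counts in control juveniles, against 415.6, 1151 and 806.6 in control larvae (log2 fold change -2.96 ± 0.47, adjusted p = 0.000111).

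Control juvenile replicate 2 mattered for the other proteases. Mmp28-3 was higher in control juveniles by a log2 fold change of 5.77 with it and 4.49 without it, Mmp28-2 by 3.49 and 1.89 and Mmp3-2 by 3.31 and 3.06, all called in both fits. Mmp14 (1.81, adjusted p = 0.0193) and Mmp28-1 (5.08, adjusted p = 0.00529) lost their calls without it, at 0.39 (adjusted p = 0.363) and 1.95 (adjusted p = 0.0512). In the irradiated animals 7 MMPs were higher in juveniles and 2 lower (58.3% and 16.7%, beside 31.4% and 28.6% of all genes). Mmp3-2 stood at 0.90 (adjusted p = 0.217) there, and at 2.54 (adjusted p = 1.88e-05) without irradiated larvae replicate 2. Both TIMPs were lower in control juveniles than in control larvae. Timp1-1 had 1933, 4609 and 1745 normalized counts in control juveniles, against 11158, 9254 and 7903 in control larvae (log2 fold change -1.77 ± 0.30, adjusted p = 0.000216, and -2.36 without control juvenile replicate 2). Timp2 stood at -0.90 (adjusted p = 0.000733). In irradiated animals Timp1-1 was also lower in juveniles (-0.86, adjusted p = 0.0229), a call lost without irradiated larvae replicate 1 or 3 or irradiated juvenile replicate 1 or 2 (adjusted p between 0.0603 and 0.0773), and Timp2 was not called (-0.42, adjusted p = 0.0594).

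Collagens were lower in control juveniles for 3 of 5 genes (60%, beside 29.8% of all genes). Co2a1-1 stood at -1.08 ± 0.23 (adjusted p = 0.000997), Co5a1-1 at -1.22 ± 0.21 (adjusted p = 0.00023) and Co4a2 at -0.34 ± 0.11 (adjusted p = 0.0148), while Co4a5 (-0.35, adjusted p = 0.0728) was not called. Co9a1, named for a collagen that decorates fibrils in vertebrate cartilage, went the other way. It had 305.6, 251.4 and 436.6 normalized counts in control juveniles, against 0, 1.03 and 0.97 in control larvae. The 1100 and 2 reads of these groups give a ratio of 463.5 with a counting interval of 128.0 to 3832. In irradiated larvae it had 4.1, 0 and 39.2 normalized counts, so that 1 library carried most of its reads.

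Laminins were higher in control juveniles for 6 of 10 genes and lower for 1 (60% and 10%, beside 32.8% and 29.8% of all genes). Among those higher, the beta chains Lamb1-3 (log2 fold change 1.16 ± 0.15) and Lamb2 (0.99 ± 0.15) differed most. The gamma chain Lamc1-3 was lower (-1.16 ± 0.23), and Lama3, Lama2-1 and Lamc1-1 were not called. In the irradiated animals 3 laminins were higher and 1 was lower (30% and 10%, beside 31.4% and 28.6% of all genes). The call on Lama2-2 (0.45, adjusted p = 0.0461) was lost in 11 of 20 refits. Without control larvae replicate 1 or control juvenile replicate 1 only 3 laminins were called higher, and 4 without control larvae replicate 2. Nidogens split, with Nid1-3 (-0.81), Nid2-1 (-1.72) and Nid2-2 (-1.09) lower in control juveniles and Nid1-6, Nid1-7, Nid2-3 and Nid2-4 higher, of which Nid1-6 and Nid2-4 had no read in control larvae and were at least 15.2-fold and 8.99-fold higher. Nid1-5 was not called.

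Copies of the same name belonged to different stages. Among perlecans, Pgbm-2 was higher in control juveniles (log2 fold change 5.40 ± 0.35, adjusted p = 2.9e-08), with 3338, 2549 and 2984 normalized counts against 76.2, 89.7 and 44.8 in control larvae. Pgbm-3 was lower, with 98.6, 135.9 and 145.8 normalized counts in control juveniles against 1018, 1066 and 1754 in control larvae (log2 fold change -3.33 ± 0.24, adjusted p = 7.46e-08). Pgbm-1 was lower by less, at -0.41 (adjusted p = 0.00768), without overlap of the control groups. Fibrillins did the same: Fbn3-1 had 2209, 2156 and 1939 normalized counts in control juveniles against 22138, 19105 and 22607 in control larvae (log2 fold change -3.34 ± 0.12, adjusted p = 2.14e-10), and Fbn3-2 was higher in control juveniles by 5.71 ± 0.67.

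Agrin-5, a short model of 3 exons, had no read in control juveniles and 1309, 924.8 and 1283 normalized counts in control larvae, and so was at least 1176-fold lower in control juveniles. Irradiated juveniles held 2 reads of it in all. Agrin-1 (log2 fold change 0.78) and Agrin-2 (0.39) were higher in control juveniles, Agrin-3 and Agrin-4 were not called, and the call on Agrin-2 was lost in 9 of 20 refits. Of the fibulins, which bind basement membrane and elastic fibres, Fbln1-1 was higher in control juveniles (2.69), Fbln2-1 lower (-0.94), and Fbln1-2 not called.

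Hemicentins were higher in control juveniles for 19 of 35 genes and lower for 8 (54.3% and 22.9%, beside 32.8% and 29.8% of all genes). Hmcn1-2 had 667.2, 445.8 and 379.2 normalized counts in control juveniles against 0, 0 and 2.92 in control larvae, and its 1441 and 3 reads give a ratio of 404.8 with a counting interval of 138.2 to 1965. On the larval side, Hmcn1-29 had 2.43, 1.46 and 5.80 normalized counts in control juveniles against 387.9, 407.2 and 394.1 in control larvae (log2 fold change -6.65 ± 0.69, adjusted p = 2.57e-06). Hmcn1-24 (-6.08 ± 0.18) and Hmcn1-25 (-5.09 ± 0.24) were also lower. Hmcn1-10 had no read in control juveniles and was at least 14.2-fold lower there, and Hmcn1-37 and Hmcn1-28 stood at -3.78 and -3.43. Of those called higher, Hmcn1-1 and Hmcn1-3, both 1-exon models of 4314 bases, had 0% uniquely placed reads. Hmcn1-23, Hmcn1-22 and Hmcn1-17 had 41.05%, 63.93% and 74.17%, so that other copies may share in their counts. Of those called lower, Hmcn1-28 had 52.22% uniquely placed reads, and intron reads made up 96.35% of those on Hmcn1-46. Over all families, 13 members held at most 3 reads in control larvae and 3 held at most 3 reads in control juveniles.

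For some genes the stages differed in the share of reads on exons. Hmcn1-35 had 65 exon reads of 114 in irradiated juveniles and 176 of 226 in control juveniles, but 9 of 139 in irradiated larvae and 8 of 127 in control larvae. Nid1-5 had 101 exon reads of 105 in irradiated juveniles and 64 of 71 in control juveniles, but 31 of 112 in irradiated larvae and 28 of 91 in control larvae. With exon reads alone, the log2 fold change of irradiated juveniles over irradiated larvae was 2.53 for Hmcn1-35 (adjusted p = 0.00924) and 1.46 for Nid1-5 (adjusted p = 0.00828), whereas with total reads it was -0.43 and -0.28 and neither was called. Between the control groups Hmcn1-35 was called higher in juveniles with total reads (0.66, adjusted p = 0.0324) and with exon reads (4.21, adjusted p = 0.000191), where the call with total reads was lost without control larvae replicate 1 (adjusted p = 0.146) or control juvenile replicate 1 or 2 (adjusted p of 0.0918 and 0.0645).

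**Figure D4:**
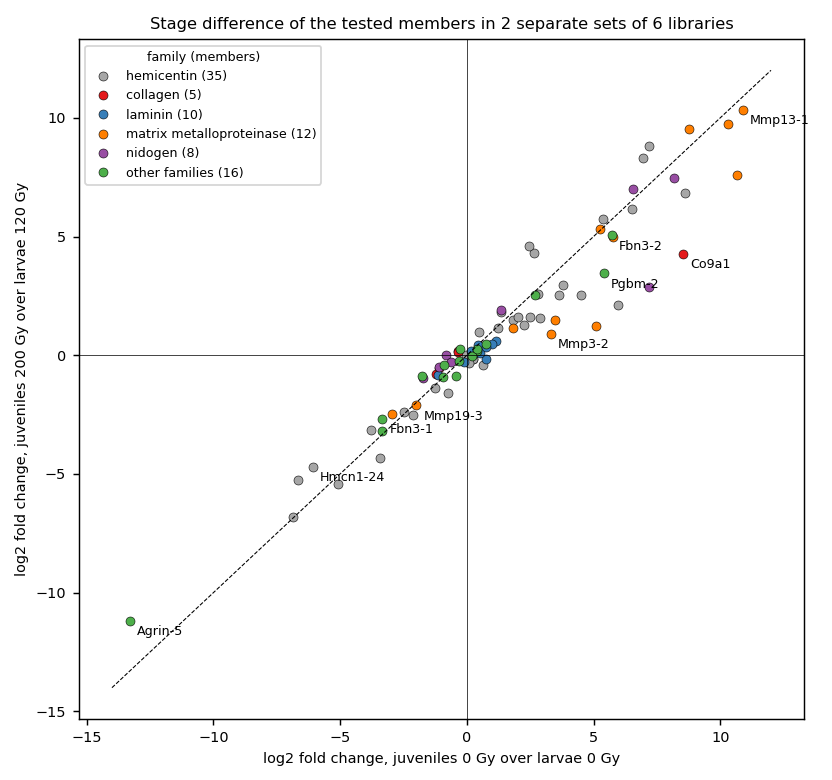
Log2 fold change of juveniles over larvae for the 86 tested genes in control animals (x axis) and in irradiated animals (y axis), coloured by family, with the line of equal values dashed. Values of genes with no read in a group depend on the prior count of the fit. MMPs extend furthest to the right, Agrin-5 furthest to the left, and Mmp3-2 lies below the line (3.31 and 0.90).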

How the data were processed

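Whole larvae and juveniles of S. californicum were sequenced as 12 libraries of 5 pooled animals, prepared with an mRNA kit and run in a single lane. Reads were mapped by the authors to the annotated genome (v2.0) with CLC Genomics Workbench, version not given in the sources used here; the study tested its genes with DESeq2. The deposited tables hold counts of reads per gene (exon plus intron reads, not normalized) and RPKM, which the authors' software calculated from exon reads. RPKM was used only for levels between genes. How reads shared by near-identical copies were divided could not be varied; 13 of the 91 genes had under 90% uniquely placed reads.

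Counts were analysed with edgeR 4.0.16 in R 4.3.3: filterByExpr on the 4 groups, TMM factors, 1 mean per group over all 12 libraries, and the two-sided quasi-likelihood test. Adjusted p-values follow Benjamini and Hochberg, over all 20780 genes tested. The procedure was tested on simulated data. Limits for groups without reads are 3 counts over the group, and intervals have a level of 95%.

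Alternatives were DESeq2 size factors, library totals, no filter, the DESeq2 1.42.0 Wald test, only the 6 libraries of a contrast, a replicate block, unique reads, exon reads, each library left out, and an adjusted p of 0.01 or less. The study describes 3 independent biological replicates per group; nothing links equal replicate numbers. Genes named were the up to 8 largest rises and falls of each irradiation contrast and 6 of the control stage contrast (called, groups not overlapping, mean of at least 20 normalized counts), the 5 highest by RPKM, all type IV collagen, laminin, nidogen, perlecan, SPARC, agrin and TIMP genes, and those called in the difference between stages. Others were named after their values were seen. The genes and lists were chosen with earlier results of these data known. No sequences are shown.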

Additional observations from a re-analysis of the deposited data

Results flagged for a closer look

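For 4 matrix genes the effect of irradiation differed between the stages, by the test of juveniles minus larvae in the edgeR fit. These were 2 lower and 2 higher, or 2.33% each of the 86 tested, near the 1.60% and 1.87% of all genes. Each stage had its own dose. Pgbm-2 had a difference of -1.95 on the log2 scale, from 0.79 in juveniles, where it was not called, and 2.74 in larvae. Fbn3-1 had a difference of 0.67, from 0.63 in juveniles and -0.04 in larvae, and its call was lost without most single libraries (adjusted p up to 0.0924). Hmcn1-24 had a difference of 1.38, from 0.71 in juveniles and -0.67 in larvae, and 0.41 with exon reads alone (adjusted p = 0.896). Hmcn1-34 had a difference of -1.98, from -0.97 in juveniles and 1.01 in larvae, where it was not called. Without irradiated larvae replicate 2, which was low, the larval value was 1.35 and was called (adjusted p = 0.0439), and the difference was -2.31. With all libraries its adjusted p was 0.0459, and up to 0.119 when single libraries were left out.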

How the results depend on the processing

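Pairing by replicate number was not borne out: deviations of equally numbered libraries correlated between -0.099 and 0.054. With the replicate block, 2 members were higher in irradiated larvae and the difference between the stages' effects was called lower for 0 and higher for 1 member; it lost 5 of the 22 juvenile calls.

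In larvae, 2 members were called higher with library totals only, with no filter beyond 1 count and with the DESeq2 Wald test, and 0 were called lower with only the 6 libraries of the contrast or at an adjusted p of 0.01 or less. In juveniles, 5 were lower at an adjusted p of 0.01 or less, and 7 were higher with DESeq2 and with only the 6 libraries. Shares of all genes under these other settings, and with the replicate block, are not given here. These counts therefore cannot show whether members differed from all genes under them. For the difference between the stages' effects, 1 was higher with library totals, which moved the median of all genes to -0.10 from -0.04, and 1 with exon reads only, and 0 were called in either direction at an adjusted p of 0.01 or less.

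Leaving out single libraries gave 0 to 3 lower and 1 to 2 higher members in larvae, 8 to 17 lower and 3 to 7 higher in juveniles, and 0 to 2 lower and 1 to 2 higher for the difference between them. Shares of all genes in these fits are not given here. The stage calls were steadier, with 22 to 25 lower and 36 to 44 higher in controls, and 17 to 22 lower and 33 to 37 higher in irradiated animals.

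In 4 cases the sign turned for a value that was called before or after. With exon reads only, Hmcn1-24 in juveniles went to -0.27, and the stage difference in irradiated animals went to 2.53 for Hmcn1-35 and 1.46 for Nid1-5. Without control juvenile replicate 2, Mmp14 in juveniles went to 1.21, and to between -0.62 and 0.005 without any other library; the fit with the block gave 0.29. Why that library is high was not tested. For the 13 members with at most 3 reads in control larvae, a fall in irradiated larvae was not detectable at this depth. The fit with only 6 libraries cannot give the difference between the stages' effects, and DESeq2 gave no adjusted p for Mmp28-1 and Mmp28-2 between the control stages.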
